A study of Mus musculus with 18 samples.

Results

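The 10 genes described here encode transcriptional regulators of mitochondrial genes: the coactivators Ppargc1a (PGC-1alpha), Ppargc1b (PGC-1beta) and Perm1, the estrogen-related receptors Esrra, Esrrb and Esrrg, the peroxisome proliferator-activated receptors Ppara and Ppard, and the factors Tfam and Nrf1. They were chosen by name, with no measured value in the rule, out of 41388 Ensembl genes counted in every library. The choice was made with earlier results of these data known. All 10 were found by symbol, and all 10 passed the filter on low counts in each of the 5 comparisons. After depletion of ribosomal RNA, libraries were made from total RNA of the gastrocnemius (a calf muscle of mostly fast fibres) and of the soleus, which holds more slow fibres. The mice were 12 weeks old, ate standard chow and were fasted for 4 h. Controls carried the Site-1 Protease floxed allele (S1P, gene Mbtps1). Knockouts carried the same floxed allele plus HSACre+, a Cre driven by the human skeletal actin promoter in skeletal muscle fibres, so that other cells of the muscle keep the allele. No group carried Cre alone, and an effect of Cre cannot be told apart from loss of S1P. By their titles, each muscle has 5 libraries of controls and 4 of knockouts (18 altogether), although the series text states 4 per group. No label says whether libraries came from separate mice, or whether both muscles came from the same mice. Where they did not, p-values reflect the spread among the libraries alone, which may be technical.

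Libraries held 39.0 to 78.2 M counts. Mbtps1 itself was at 29.6 to 34.9 CPM (the count scaled to library size, with TMM normalization) in gastrocnemius controls and at 34.7 to 42.8 CPM in the libraries labelled knockout. In the soleus it was at 30.5 to 34.4 CPM in controls and 31.0 to 36.3 CPM in those labelled knockout. Its gene count was thus not lower under the knockout label in either muscle. The count covers every exon of the gene and the labels do not name the deleted part, so it does not check the genotype, and "knockout" below means labelled knockout. The 8 defining genes of skeletal muscle fibres (Acta1, Ckm, Des, Mb, Ttn, Neb, Ryr1 and Cacna1s) were detected in every group.

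PGC-1alpha and PGC-1beta do not bind DNA themselves. They dock on nuclear receptors and other factors and recruit acetyltransferases and the Mediator complex to their targets. ERR receptors bind as monomers or dimers to an extended half-site and drive genes of the respiratory chain and the TCA cycle, while PPARs bind as partners of RXR and drive genes of fatty acid uptake and oxidation. NRF1 drives nuclear genes for the respiratory chain and for the mitochondrial transcription machinery, among them Tfam, whose protein packages mitochondrial DNA and starts its transcription. PERM1 is induced by PGC-1 and ERR proteins in striated muscle and supports part of the same programme. In skeletal muscle the network is known for its link to endurance exercise and to oxidative fibres.

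Upstream DNA of 9 of the 10 members was in the promoter table (RefSeq, build GRCm38.p6, 14 start sites). Ppargc1b was not matched. The 250 bases before each start were searched on both strands for the ERR element AAGGTCA, the half-site AGGTCA that it contains, the cAMP response element TGACGTCA and its shorter core TGACG, the NRF1 core GCATGCGC, the GABP core CCGGAAG, the MEF2 core TAAAAATA and the sterol element TCACNCCAC. Among the members' windows, the ERR element was matched in that of Perm1, which 4.08% of all 32851 windows also held. The half-site was matched at the same bases, against 14.02% of all windows. The core TGACG was matched before Ppargc1a, Esrrb and Ppara (17.8% of all windows), and the full element before none of the members (1.55%). The NRF1 core was matched before Esrra and Ppara (2.26%), and the GABP core before Tfam (6.91%). An annotated exon begins after the first 38 bases of the Ppara window and the first 14 of the Tfam window. The NRF1 core in Ppara and the GABP core in Tfam lie past those points, nearer the start site. The MEF2 core (2.45%), the sterol element (1.05%) and 2 copies of AGGTCA spaced by 1 base (0.0335%) were not found in these windows. Such a match describes letters, not a site in use. The 3 stretches below are those of the member with the highest level (Perm1), the member with the widest range within a group (Ppargc1a, 3.51-fold among soleus knockouts) and the receptor whose 2 gastrocnemius groups did not overlap (Esrra). Each ends before the first annotated exon, reads 5′ to 3′ on the gene's strand, and has the matched bases in capitals. In Perm1 these are the reverse complement of AAGGTCA, in Ppargc1a the reverse complement of TGACG, and in Esrra GCATGCGC.
Perm1 (chr4:156215677-156215867, plus strand): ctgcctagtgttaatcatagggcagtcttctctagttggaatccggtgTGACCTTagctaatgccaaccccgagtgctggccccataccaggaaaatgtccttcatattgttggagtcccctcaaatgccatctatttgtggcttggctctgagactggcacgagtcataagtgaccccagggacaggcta
Ppargc1a (chr5:51567727-51567975, minus strand): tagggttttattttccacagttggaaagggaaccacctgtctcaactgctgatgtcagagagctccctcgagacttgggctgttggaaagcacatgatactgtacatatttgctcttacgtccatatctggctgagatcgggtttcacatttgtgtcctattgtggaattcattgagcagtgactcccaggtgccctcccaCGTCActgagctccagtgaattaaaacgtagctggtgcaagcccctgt
Esrra (chr19:6921814-6922058, minus strand): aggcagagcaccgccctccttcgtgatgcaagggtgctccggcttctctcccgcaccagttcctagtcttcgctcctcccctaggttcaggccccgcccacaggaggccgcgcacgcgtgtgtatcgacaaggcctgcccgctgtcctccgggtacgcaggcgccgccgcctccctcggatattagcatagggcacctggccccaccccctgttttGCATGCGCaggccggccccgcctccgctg

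On GRCm38, Ppargc1a lies on chromosome 5 (51454249 to 51567725, minus strand), Ppargc1b on chromosome 18 and Perm1 on chromosome 4 (156215868 to 156221307, plus strand). The ERR genes are spread over 3 chromosomes: Esrra on 19 (6910977 to 6921813, minus), Esrrb on 12 (86361117 to 86521628, plus) and Esrrg on 1 (187608791 to 188214885, plus). Ppara lies on 15 (85734983 to 85802819, plus) and Ppard on 17 (28232754 to 28301469, plus). Tfam lies on 10 (71225464 to 71238280, minus) and Nrf1 on 6 (30047988 to 30153458, plus). The counts sum the reads over the exons of each gene.

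Levels were first set side by side per kilobase of listed gene length. In gastrocnemius controls Perm1 was the most abundant member (58.3 ± 5.01 CPM per kb, SD, n = 5), followed by Esrra (40.3 ± 1.51) and Ppargc1a (12.5 ± 2.25). Ppard, Ppargc1b, Ppara, Tfam and Esrrg followed between 9.78 and 4.99 CPM per kb, and each overlapped its neighbour in that order in at least 1 library. Esrrb (1.38 ± 0.228) and Nrf1 (1.18 ± 0.0487) were lowest and overlapped each other. The order was different in soleus controls, where Esrrg (25.7 ± 2.20 CPM per kb) and Ppara (23.9 ± 4.61) stood beside Ppargc1a (28.4 ± 12.2) with overlapping ranges. Perm1 (129 ± 9.67) and Esrra (49.1 ± 2.22) again had the highest 2 means, although Esrra overlapped Ppargc1a here, and Nrf1 (1.44 ± 0.125) was again the lowest.

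To see whether loss of S1P moves this network, the libraries labelled knockout were compared with controls within each muscle. None of the 10 regulators passed the test in either muscle. In the gastrocnemius the estimate was lower in knockouts for 7 of 10 members, with a median log2 fold change of -0.10 over the members against 0.02 over all 16393 genes tested. In the soleus it was lower for 6 of 10, with a median of -0.12 against 0.00 over 18087 genes. The edgeR quasi-likelihood test (adjusted p under 0.05 over all genes) called 3.78% of all genes in the gastrocnemius and 0.0553% in the soleus, and 0 members in both. At an unadjusted p under 0.05 it held 2 members (Esrra and Esrrb) against 18.6% of all genes in the gastrocnemius, and 1 member (Nrf1) against 8.19% in the soleus. DESeq2 called 0 members too, against 7.53% and 0.918% of all genes, and limma voom 0 against 3.51% and 0.0553%. The plot of knockout effects shows all 20 estimates with their intervals.

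**Figure D1:**
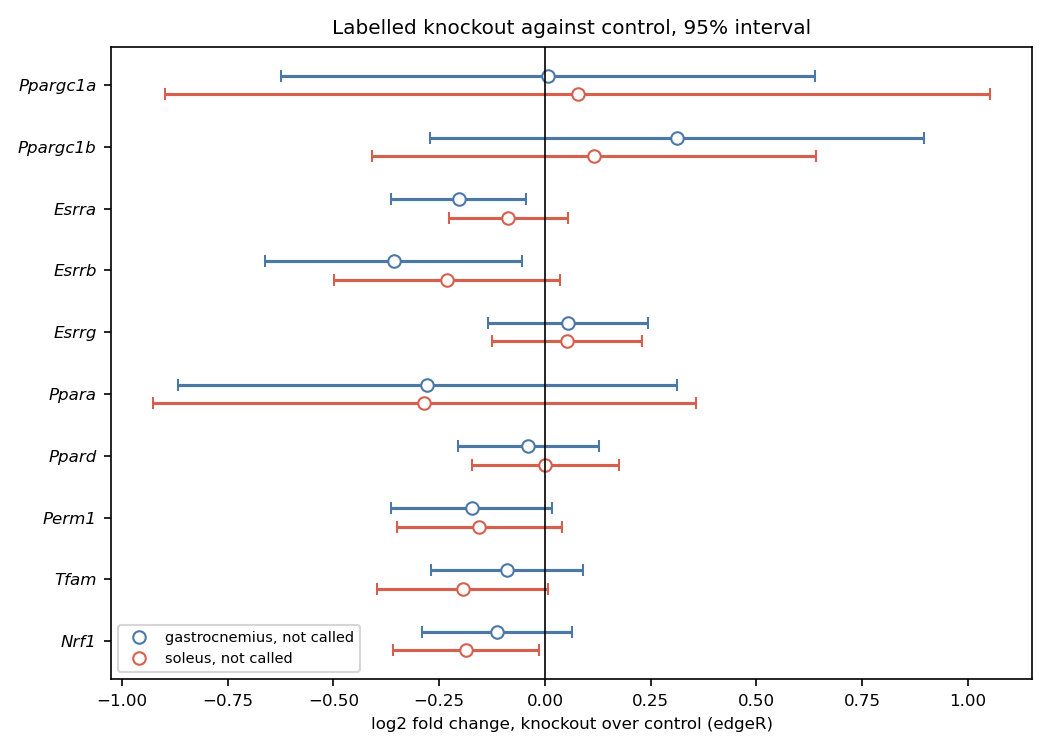
Log2 fold change of each regulator, knockout over control (x axis, edgeR estimate), with its 95% interval, in the gastrocnemius (blue) and the soleus (red). Open symbols mark estimates that did not pass the adjusted threshold, which is all of them, and the intervals of Ppargc1a, Ppargc1b and Ppara are the widest.

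Among the coactivators, Ppargc1a, the inducible member of the PGC-1 family, was at 80.5, 91.2, 102, 78.7 and 62.1 CPM in gastrocnemius controls (replicates 1, 3, 4, 5 and 8). In knockouts it was at 136, 74.1, 67.2 and 56.1 CPM (replicates 2, 6, 7 and 9). In the gastrocnemius 1 knockout library lay above every control and 1 below every control, and the groups overlapped. The fold change was 1.01 (95% interval 0.649 to 1.56), log2 0.01 (SE 0.27), with an edgeR adjusted p of 0.993. In the soleus Ppargc1a was at 315, 204, 177, 145 and 100 CPM in controls (replicates 34, 36, 37, 38 and 41) and at 289, 210, 211 and 82.4 CPM in knockouts (replicates 35, 39, 40 and 42). The libraries of 1 group differed 3.14-fold in controls and 3.51-fold in knockouts, and the 95% interval of the knockout effect ran from 0.537-fold to 2.07-fold around an estimate of 1.06. At that width the data do not show that Ppargc1a was unaffected.

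Ppargc1b, the closest relative of Ppargc1a, was at 23.8, 24.3, 24.6, 24.9 and 39.0 CPM in gastrocnemius controls and at 20.05, 43.5, 29.4 and 42.6 CPM in knockouts. The estimate was 1.24-fold (0.828 to 1.86), with an edgeR adjusted p of 0.585. In the soleus it was at 42.2, 36.1, 41.0, 42.5 and 69.2 CPM in controls and 35.2, 49.3, 46.8 and 67.4 CPM in knockouts. Here the estimate was 1.08-fold (0.753 to 1.56, adjusted p 0.949 by edgeR). In both controls 4 libraries lay close together and 1 stood well above them. Among gastrocnemius knockouts, 20.05 CPM lay below every control, and 43.5 and 42.6 CPM lay above every control. Among soleus knockouts, 35.2 CPM lay below every control and the rest lay within the control range. Perm1 was at 219, 201, 247, 246 and 224 CPM in gastrocnemius controls and at 202, 221, 167 and 216 CPM in knockouts. In the soleus Perm1 was at 545, 471, 508, 535 and 460 CPM in controls and at 476, 521, 393 and 411 CPM in knockouts. In each muscle the lowest Perm1 value was a knockout library and the highest a control library, with overlap between. The estimates were 0.887-fold (0.777 to 1.01) and 0.898-fold (0.784 to 1.03), and the edgeR adjusted p-values were 0.320 and 0.715.

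Of the ERR receptors, Esrra was at 98.9, 101, 108, 99.7 and 103 CPM in gastrocnemius controls and at 94.2, 88.9, 75.8 and 95.6 CPM in knockouts. All 4 knockout libraries lay below all 5 controls, a separation that 8.41% of all genes tested in this muscle showed in either direction. The estimate was 0.868-fold (0.777 to 0.970), log2 -0.20 (SE 0.07), with an unadjusted p of 0.0159 and an adjusted p of 0.149 by edgeR. In the soleus Esrra was at 115, 127, 127, 129 and 127 CPM in controls and at 116, 123, 108 and 121 CPM in knockouts. The soleus groups overlapped (0.941-fold, 0.854 to 1.04), and none of the 10 members was without overlap there, against 2.55% of all genes. Part of Esrra lies under other genes: its exons share 73 bases with Trmt112 on the opposite strand and 91 bases with Mir6990 on the same strand. How reads over those bases were counted was not checked. The strand setting was not given in the sources used here.

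Esrrb, an ERR receptor best known from stem cells and also present in muscle, was at 8.28, 7.02, 8.53, 10.6 and 7.44 CPM in gastrocnemius controls and at 7.18, 7.72, 5.37 and 5.81 CPM in knockouts. Of the knockout values, 2 lay below every control. The estimate was 0.780-fold (0.632 to 0.964), with an unadjusted p of 0.0245 and an adjusted p of 0.182 by edgeR. In the soleus Esrrb was at 34.6, 31.4, 36.6, 42.7 and 33.7 CPM in controls and 30.2, 36.3, 22.8 and 32.1 CPM in knockouts (0.852-fold, 0.708 to 1.03, adjusted p 0.681 by edgeR). Esrrg, a receptor abundant in heart and slow oxidative muscle, had narrow groups that overlapped widely. It was at 27.6 to 35.2 CPM in controls and 28.6 to 36.6 CPM in knockouts of the gastrocnemius (1.04-fold, 0.911 to 1.18). In the soleus it was at 142 to 179 CPM in controls and 149 to 187 CPM in knockouts (1.04-fold, 0.917 to 1.17). The widest of these 2 intervals thus ended at 0.911-fold and 1.18-fold.

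Of the PPAR receptors, Ppara, a fatty-acid-activated receptor that drives oxidation genes, was at 26.6, 24.8, 29.6, 25.1 and 17.4 CPM in gastrocnemius controls and at 32.8, 16.9, 16.6 and 15.03 CPM in knockouts. Knockout replicate 2 lay above every control and the other 3 knockout libraries below every control. With all libraries the estimate was 0.825-fold (0.548 to 1.24), log2 -0.28 (SE 0.26), with an edgeR adjusted p of 0.640. Without knockout replicate 2 it was log2 -0.61 (SE 0.14), with an edgeR adjusted p of 0.0215, and Ppara was then the 1 member called, against 6.55% of all genes in that fit. Of 16 alternative settings this was the only 1 in which a member was called. Replicate 2 stands out by its Ppara value itself, so the call without it is no separate support for a lower Ppara. Knockout replicate 2 was also the highest of its group in Ppargc1a and the lowest in Tfam and Ppargc1b. What sets it apart was not tested. In the soleus Ppara was at 106, 112, 86.8, 85.1 and 68.0 CPM in controls and 120, 74.9, 62.2 and 43.6 CPM in knockouts. The highest and the lowest library were both knockouts, and the estimate was 0.821-fold (0.526 to 1.28, adjusted p 0.867 by edgeR). Ppard, the PPAR found in most tissues, was at 40.1 to 49.97 CPM in gastrocnemius controls and 39.8 to 47.2 CPM in knockouts (0.973-fold, 0.867 to 1.09). In the soleus Ppard was at 31.5 to 39.4 CPM in controls and 32.5 to 39.6 CPM in knockouts (1.00-fold, 0.887 to 1.13).

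Tfam, the packaging and transcription factor of mitochondrial DNA, was at 22.1 to 28.0 CPM in gastrocnemius controls and 21.1 to 24.7 CPM in knockouts (0.939-fold, 0.83 to 1.06). In the soleus it was at 21.4 to 25.1 CPM in controls and 16.9 to 23.4 CPM in knockouts (0.874-fold, 0.760 to 1.01, adjusted p 0.626 by edgeR). Nrf1 was at 11.7 to 12.96 CPM in gastrocnemius controls and 10.2 to 11.9 CPM in knockouts (0.924-fold, 0.817 to 1.04). In the soleus Nrf1 was at 14.5, 13.3, 14.9, 16.9 and 14.7 CPM in controls and at 12.7, 13.003, 12.8 and 13.4 CPM in knockouts. Only the highest knockout library reached the lowest control. The estimate was 0.878-fold (0.779 to 0.990), with an unadjusted p of 0.0353 and an adjusted p of 0.575 by edgeR. The 13 mitochondrially encoded mRNA genes, the far end of the route through Tfam, took 7.85 ± 0.578% (SD, n = 5) of all counts in gastrocnemius controls and 7.73 ± 0.426% (n = 4) in knockouts (exact two-sided permutation p = 0.746). In the soleus they took 9.71 ± 0.410% in controls and 11.1 ± 1.24% in knockouts (exact permutation p = 0.0635, 0.127 adjusted over the 2 muscles). The soleus difference was 1.34 percentage points and turned on single knockout libraries. It was 1.83 points without knockout replicate 35 (exact permutation p = 0.0357) and 0.842 points without knockout replicate 39 (exact permutation p = 0.143). Of the 10 nuclear members, 0 were called in these soleus libraries.

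The difference between the knockout effects of the soleus and the gastrocnemius was tested directly. None of the 10 members was called, and the edgeR fit called 0.0703% of all genes. At an unadjusted p under 0.05 it held 0 members, against 999 of all 18494 genes tested. DESeq2 (0.281% of all genes) and limma voom (0.0595%) also called 0 members.

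**Figure D2:**
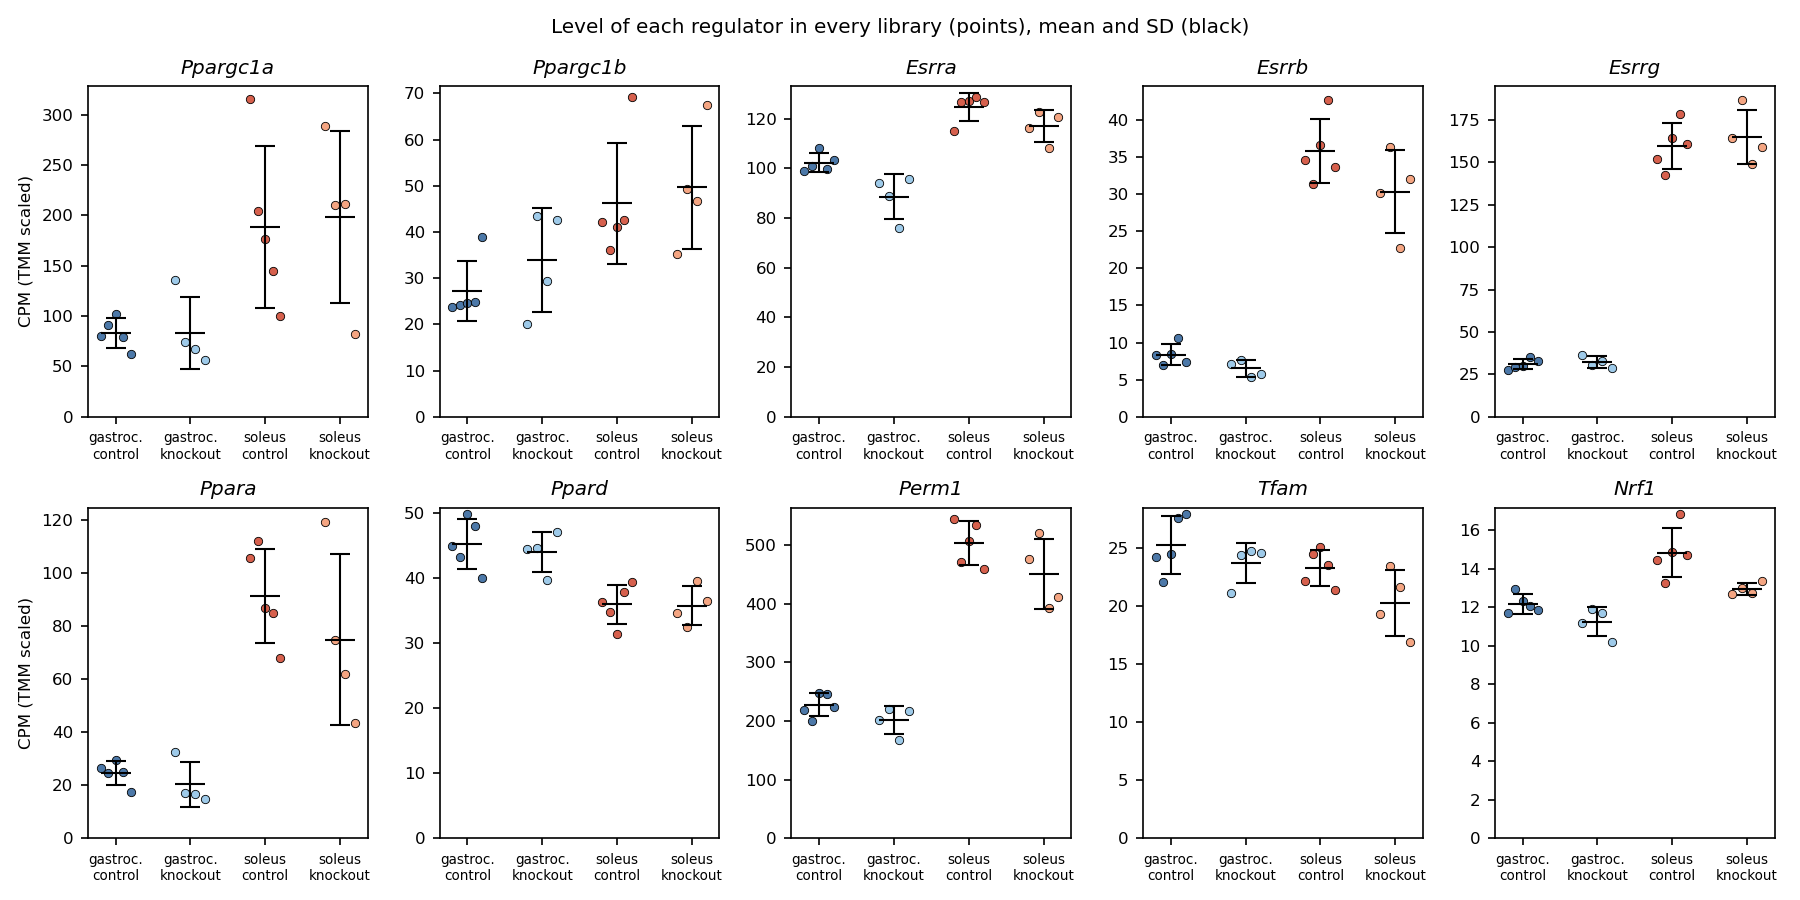
CPM of each regulator (y axis, TMM scaled, from 0) in every library of the 4 groups, with the group mean and SD in black. Esrrb, Esrrg, Ppara and Perm1 (higher in the soleus) and Ppard (lower, by a narrow gap) are separated by muscle with no overlap. The 2 groups within a muscle overlap in every panel except Esrra in the gastrocnemius.

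Genes around these regulators were read from lists taken by name, with earlier results of these data known. In the gastrocnemius, 1 of 18 coactivators and corepressors was lower in knockouts by edgeR, namely Hdac3, the deacetylase of the NCoR complex (log2 -0.30, SE 0.06, adjusted p 0.0156). Of 14 other nuclear receptors, 2 were lower, both RXR partners of the PPARs: Rxrg (log2 -0.58, SE 0.09, adjusted p 0.00423 by edgeR) and Rxra (-0.31, SE 0.08, adjusted p 0.0415). Rxrg was at 50.7 ± 4.40 CPM in controls (SD, n = 5) and 33.9 ± 4.25 in knockouts (n = 4). Of 28 kinases and factors that act on Ppargc1a, 2 were lower: Ppp3cb, a catalytic subunit of calcineurin (log2 -0.29, adjusted p 0.0315 by edgeR), and Prkab2, a regulatory subunit of AMPK (-0.28, adjusted p 0.0409). The median log2 fold change of these 3 lists was -0.08, -0.16 and -0.14, against 0.02 over all genes, and the calls on Rxra, Ppp3cb and Prkab2 were lost in 6 to 8 of the 16 alternative settings. In the soleus none of the 3 lists had a called gene, and their medians were -0.05, -0.06 and -0.02 against 0.00. At an unadjusted p under 0.05, 4 of the 18 coregulators, 7 of the 14 receptors and 12 of the 28 upstream genes were lower in gastrocnemius knockouts and 0 higher, against 18.6% of all genes in either direction. In the soleus 0, 2 and 1 were lower and 0 higher, against 8.19%.

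Downstream, the 27 ERR targets held genes of the respiratory chain, the TCA cycle and energy transfer, and also others such as Ldhb and Vegfa. Of these 27, 0 were called in either muscle, with medians of -0.06 in the gastrocnemius and -0.03 in the soleus. At an unadjusted p under 0.05, 4 of the 27 were lower and 0 higher in the gastrocnemius, where 18.6% of all genes were under it in either direction, and 0 of either in the soleus (8.19% of all genes). Of 27 tested PPAR targets in lipid handling, 1 was called: Plin2, the lipid droplet coat protein, was higher in gastrocnemius knockouts (20.2 ± 1.93 against 27.04 ± 3.41 CPM, log2 0.42, SE 0.09, edgeR adjusted p 0.0272). The median of its list was -0.07 there and -0.10 in the soleus, and 7 of the 27 had a positive estimate in the gastrocnemius. Among 22 genes of mitochondrial DNA upkeep and transcription 0 were called in either muscle. Of 10 slow-fibre genes 1 was called, Myl2, the slow regulatory myosin light chain, which was lower in gastrocnemius knockouts (89.1 ± 16.5 against 46.1 ± 8.38 CPM, log2 -0.95, adjusted p 0.0113 by edgeR). Of the 10 slow-fibre genes, 9 had a negative estimate in each muscle, with medians of -0.62 and -0.34. At an unadjusted p under 0.05, 5 of these 10 were lower and 1 higher in the gastrocnemius, and 9 lower and 0 higher in the soleus. None of 12 fast-fibre genes was called in either muscle, and at the unadjusted p 5 were lower in the gastrocnemius and 3 higher in the soleus.

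Bulk RNA holds other cells too, and fewer cells of a type cannot be told apart from less RNA per cell. The 8 macrophage markers summed to 94.0 to 132 CPM in gastrocnemius controls and 118 to 217 CPM in knockouts, and to 59.3 to 99.4 and 74.1 to 121 CPM in the soleus. The 6 fibroblast markers summed to 2491 to 4379 and 3459 to 5285 CPM in the gastrocnemius, and to 1332 to 2143 and 1426 to 3027 CPM in the soleus. The 8 adipocyte markers, with Pparg among them, summed to 33.8 to 113 and 47.2 to 88.2 CPM in the gastrocnemius, and their called member was Ucp1 (log2 2.91, edgeR adjusted p 0.00732), at 0.143 ± 0.119 CPM in controls and 1.12 ± 0.153 in knockouts. Endothelial markers (6) summed to 248 to 278 and 265 to 306 CPM in the gastrocnemius, Schwann cell markers (6) to 215 to 373 and 187 to 320, and smooth muscle markers (5) to 347 to 466 and 354 to 458. At an unadjusted p under 0.05 by edgeR, 6 macrophage, 3 fibroblast and 2 endothelial markers were higher in gastrocnemius knockouts and 0 lower. Of the adipocyte markers 1 was higher and 2 lower there, against 18.6% of all genes in either direction. In the soleus 3 macrophage and 1 fibroblast markers were higher and 0 lower, against 8.19%. There 2 Schwann cell markers and 1 smooth muscle marker were lower and 0 higher. Schwann cell markers summed to 67.3 to 240 CPM in soleus controls and 73.9 to 155 CPM in soleus knockouts. Smooth muscle markers summed to 462 to 550 and 365 to 516 CPM. Of the adipocyte and endothelial markers, 0 were under that p in the soleus. No marker in these lists was at 0 over a group. The 8 immediate-early genes, which respond to handling, summed to 223 to 388 CPM in gastrocnemius controls and 178 to 361 in knockouts, and none was called. The part of these other cells in the regulator values was not tested.

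Between the muscles most of these regulators did pass the test. In controls, 8 of the 10 regulators were higher in the soleus, 1 was lower and 1 did not pass the test. The edgeR fit called 49.3% of all genes, 27.4% higher and 21.9% lower in the soleus. The median log2 fold change of the members was 0.95, against 0.08 over all 18494 genes. Among knockouts, 7 were higher and 1 lower, against 19.2% and 18.5% of all genes (37.8% in all), and the median was 0.86 against 0.03. Of those 7, the calls on Nrf1 and Ppargc1a were each lost under several alternative settings, given below. The comparisons in controls and in knockouts set different libraries against each other. Both were contrasts of the same fit of all 18 libraries, with a shared scaling and estimate of spread, so they are not independent.

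**Figure D3:**
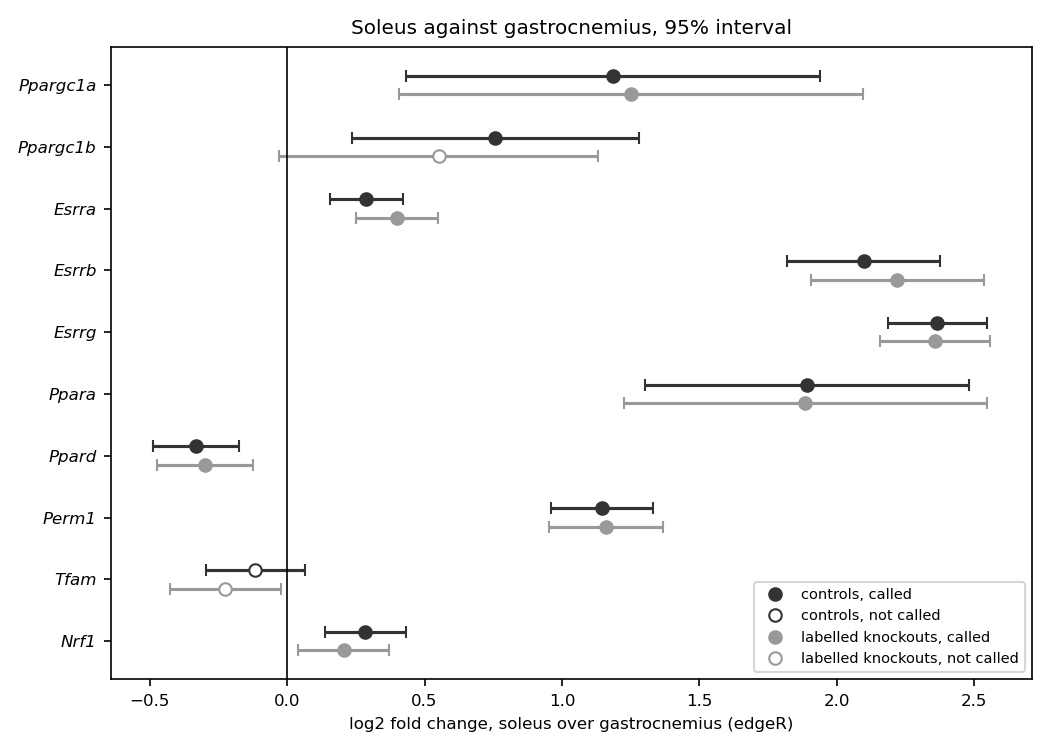
Log2 fold change of each regulator, soleus over gastrocnemius (x axis, edgeR estimate), with its 95% interval, in controls (black) and in labelled knockouts (grey). Filled symbols passed the adjusted threshold, and Esrrg (2.37 and 2.36), Esrrb (2.10 and 2.22) and Ppara (1.89 and 1.88) lie furthest to the right.

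Of the receptors, 3 had the highest fold differences of all members. Esrrg stood at 31.0 ± 2.96 CPM (SD, n = 5) in gastrocnemius controls and 160 ± 13.6 CPM (n = 5) in soleus controls, 5.15-fold higher (95% interval 4.55 to 5.83, edgeR adjusted p 3.52e-15). Esrrb, at 8.37 ± 1.38 and 35.8 ± 4.28 CPM, was 4.28-fold higher (3.53 to 5.19, adjusted p 7.33e-11 by edgeR). Ppara, at 24.7 ± 4.49 and 91.6 ± 17.7 CPM, was 3.71-fold higher (2.47 to 5.59, adjusted p 4.09e-05 by edgeR). Every soleus library lay above every gastrocnemius library for these 3 genes, in controls and in knockouts. Esrra was 1.22-fold higher (1.11 to 1.34, edgeR adjusted p 7.14e-04), also with no overlap. Ppard was the member that was lower, at 45.3 ± 3.88 in the gastrocnemius and 36.0 ± 3.01 CPM in the soleus (0.794-fold, 0.713 to 0.885, edgeR adjusted p 9.18e-04).

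Among the coactivators, Perm1 went from 227 ± 19.6 CPM in gastrocnemius controls to 504 ± 37.7 CPM in soleus controls, 2.21-fold higher (1.95 to 2.52, edgeR adjusted p 6.14e-10). Ppargc1a was 2.27-fold higher (1.35 to 3.83, edgeR adjusted p 0.0118) and Ppargc1b 1.69-fold higher (1.18 to 2.43, adjusted p 0.0183). Their intervals were wider than that of Perm1. In each, libraries of the muscles met: 1 soleus control of Ppargc1a (100 CPM) lay within the gastrocnemius range and 1 gastrocnemius control of Ppargc1b (39.0 CPM) lay within the soleus range. The call on Ppargc1b was lost without soleus control replicate 41 (log2 0.57, edgeR adjusted p 0.0546). Among knockouts Ppargc1b was not called (1.47-fold, 0.981 to 2.19, edgeR adjusted p 0.126). The call on Ppargc1a in knockouts (2.38-fold, 1.33 to 4.27, edgeR adjusted p 0.0214) was lost in the fit of the 2 groups alone (0.0647) and without replicate 6, 7, 9 or 35 (0.0535 to 0.0727). Nrf1 was 1.22-fold higher in soleus controls (1.10 to 1.35, edgeR adjusted p 0.00216). Among knockouts it was 1.15-fold higher (1.03 to 1.29, edgeR adjusted p 0.0467), a call lost in 10 of 15 alternative settings, among them RLE scaling (0.0585) and the fit of the 2 groups alone (0.0811). Tfam, a target of NRF1, did not pass the test in either genotype with all libraries. It was 0.923-fold in controls (0.815 to 1.04, edgeR adjusted p 0.277) and 0.856-fold in knockouts (0.745 to 0.984, adjusted p 0.0724). Among knockouts it was called lower in the soleus without replicate 2 (log2 -0.28, edgeR adjusted p 0.0351) and without replicate 39 (-0.30, 0.0221).

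**Figure D4:**
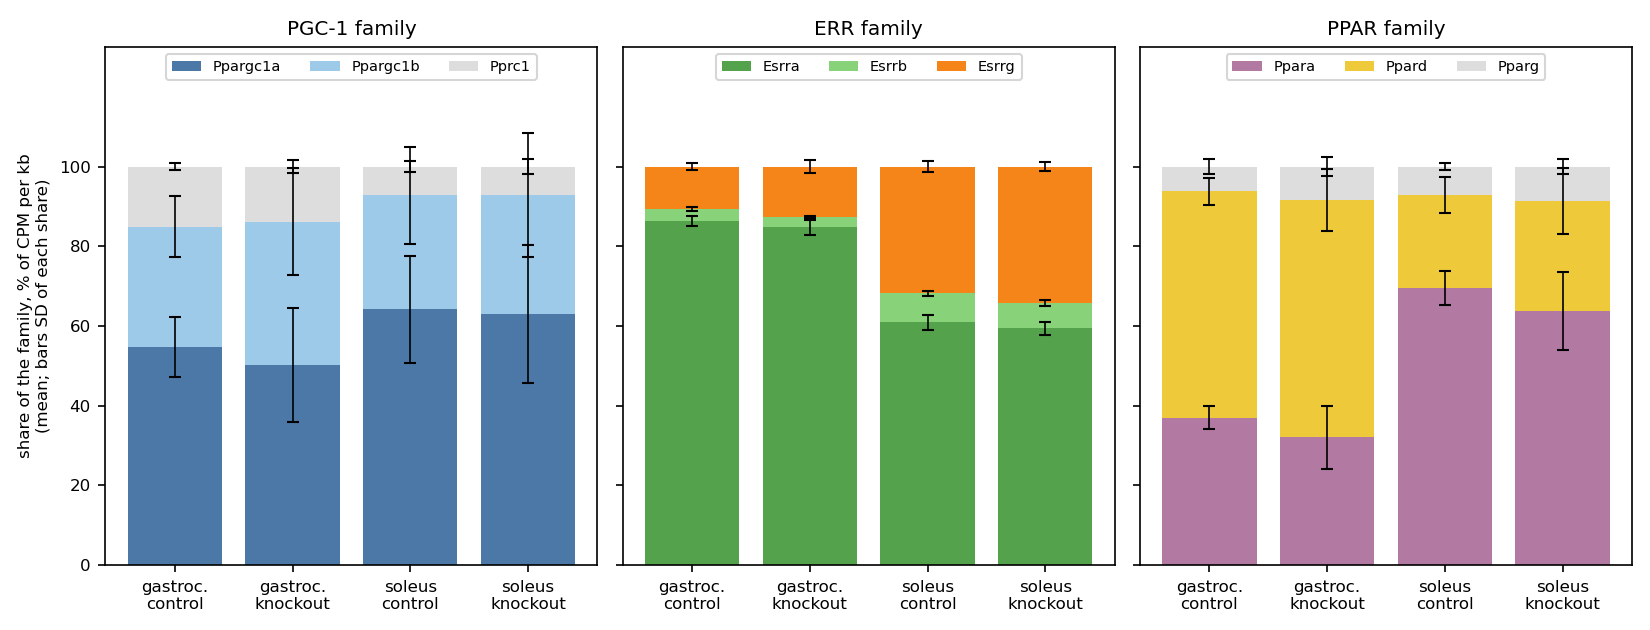
Make-up of the PGC-1, ERR and PPAR families in the 4 groups: share of each member in the family's summed CPM per kb (y axis, percent, mean over libraries, bars SD of each share). Esrrg goes from 10.7% to 31.8% of the ERR family and Ppara from 37.0% to 69.6% of the PPAR family between gastrocnemius and soleus controls, while the shares within the PGC-1 family vary widely between libraries.

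The make-up of the receptor families differed between the muscles as well. Per kilobase, Esrrg was 10.7 ± 0.954% (SD, n = 5) of the summed ERR level in gastrocnemius controls and 31.8 ± 1.44% in soleus controls, and Esrra was 86.3 ± 1.30% and 60.9 ± 1.98%. Ppara was 37.0 ± 2.85% of the PPAR sum in gastrocnemius controls and 69.6 ± 4.24% in soleus controls, where Ppard was 23.2 ± 4.51%. Both shifts had an exact two-sided permutation p of 0.00794, the smallest that 5 against 5 libraries allow, and 0.0476 adjusted over 12 tests of shares. Those tests covered the shares of Esrrg, Ppara and Ppargc1a alone, and the other shares were not tested. The levels of Esrrg and Ppara already had no overlap between the muscles, so these shifts restate the levels and add no separate support. The same shifts in knockouts (Esrrg 12.7% to 34.2%, Ppara 32.0% to 63.8%) had the smallest exact p of 4 against 4, 0.0286, and 0.0762 adjusted. Within the PGC-1 family, the Ppargc1a share (54.7 ± 7.64% and 64.1 ± 13.5%) did not differ beyond its spread (exact permutation p = 0.222). Between genotypes, the Esrrg share was 31.8% in soleus controls and 34.2% in knockouts (exact permutation p = 0.0317, adjusted 0.0762). No genotype difference in the tested shares of Esrrg, Ppara and Ppargc1a passed the adjustment.

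The lists around the regulators were split in the same comparison of controls, in which 27.4% of all genes were higher in the soleus and 21.9% lower. Of the 27 tested PPAR targets, 21 were higher in the soleus and 1 lower, with a median log2 fold change of 0.94 against 0.08 over all genes. Fabp3, the muscle fatty acid carrier (1.99), Lpl, lipoprotein lipase (1.76), and Cpt1b, which admits fatty acids to mitochondria (1.53), had the highest values, and Ucp3 (-1.19) was the lower one. Of 27 ERR targets, 16 were higher and 1 lower (median 0.22), led by Ldhb (2.25), Vegfa (0.96) and the mitochondrial creatine kinase Ckmt2 (0.96), with Idh3a lower (-0.33). By contrast, 9 of 14 other nuclear receptors were lower and 1 higher (median -0.38). Rxrg (-1.99), Nr4a1 (-1.31) and Rxra (-1.25) had the lowest values, and Pparg (1.19) was the higher one. Rxra and Rxrg, with which PPARs pair on DNA, were thus lower in the muscle in which Ppara was higher.

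Of 28 upstream kinases and factors, 14 were lower in soleus controls and 4 higher (median -0.20). The AMPK subunits Prkag3 (-3.85) and Prkab2 (-3.11) and the kinase Camk2a (-2.87) were lowest, and Fnip1 (0.91), Sik1 (0.85) and Creb1 (0.30) highest. Of 18 coregulators, 9 were lower and 3 higher (median -0.22). Nrip1, a corepressor of ERR and PPAR receptors (RIP140), was at 115 ± 15.7 CPM in gastrocnemius and 48.5 CPM in soleus controls (log2 -1.25, edgeR adjusted p 1.77e-08), followed by Hdac3 (-0.61). Ncoa3 (0.34), Sirt1 (0.31) and Med1 (0.17) were higher, and the call on Med1 was lost in 4 of 17 alternative settings (edgeR with RLE scaling, DESeq2, the 2 groups alone and without replicate 34, adjusted p up to 0.0756). Of the 22 genes of mitochondrial DNA upkeep, 6 were higher and 5 lower (median 0.05). That split was close to the one over all genes, 27.4% higher and 21.9% lower (median 0.08). Mterf2 (0.74), Mterf3 (0.66) and Lrpprc (0.61) were the highest, and Mgme1 (-0.97), Top1mt (-0.66) and Tfb2m (-0.41) the lowest. All 10 slow-fibre genes were higher (median 4.08), and 10 of 12 fast-fibre genes were lower and 1, Myh2, higher (median -1.92). In these bulk samples the regulator differences stand beside a large difference in fibre genes, and the part of fibre type in them was not tested. Endothelial markers, all 6 of them higher, summed to 248 to 278 CPM in gastrocnemius controls and 345 to 364 CPM in soleus controls. Fibroblast (4 of 6), Schwann cell (4 of 6) and macrophage (4 of 8) markers were lower in the soleus, and no marker was higher in these 3 lists.

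To see which members vary together between libraries of 1 group, each library's log2 level (CPM plus 0.5) was taken as the deviation from its group mean, and all 45 pairs of members were correlated in each muscle over 9 libraries, with exact permutation within groups. None of the 90 correlations passed the adjustment, whose smallest p was 0.172, so the pairs below are a description chosen after their values were seen. Ppargc1a and Ppara had r = 0.96 in the gastrocnemius (Spearman 0.93, exact permutation p = 0.00243 and 0.00625) and 0.87 in the soleus (Spearman 0.77, exact permutation p = 0.00625 and 0.0319). Without the 2 libraries farthest from the median of Ppargc1a, r was 0.91 and 0.67. The library with the lowest Ppargc1a was the lowest in Ppara in all 4 groups, and the highest in Ppargc1b in 3 of 4.

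**Figure D5:**
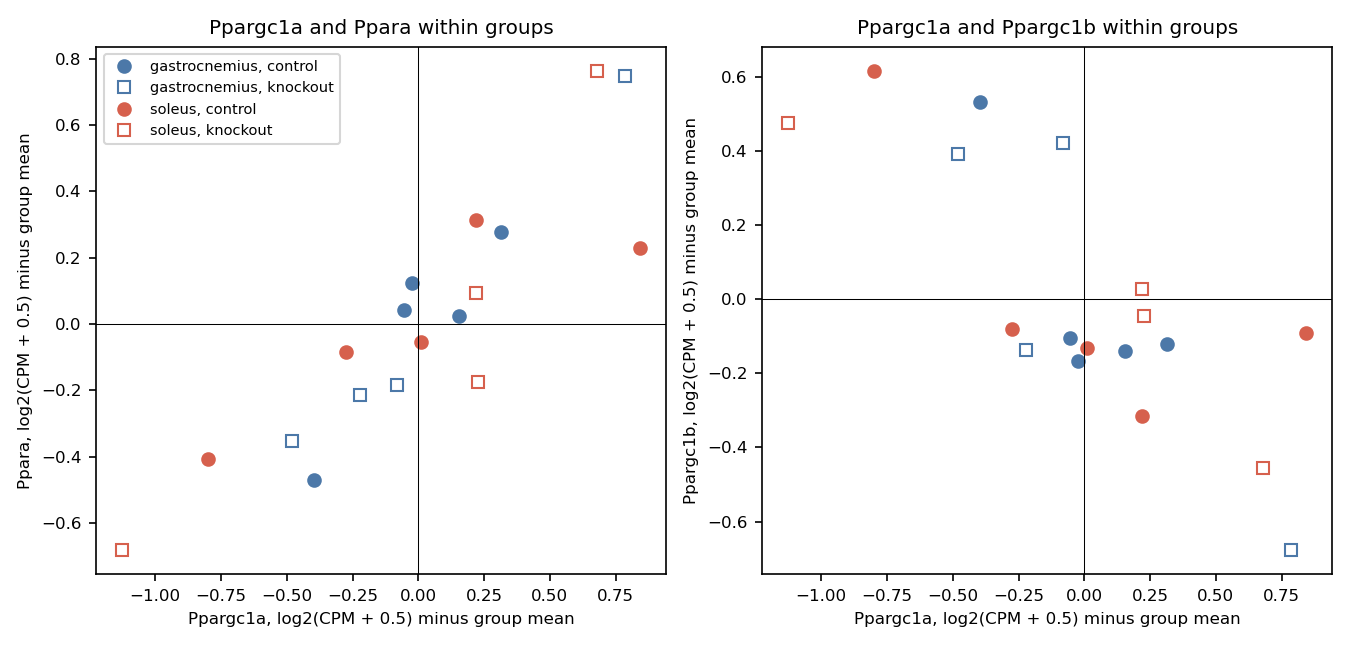
Deviation of each library from its group mean, in log2(CPM + 0.5), for Ppargc1a (x axis) against Ppara (left) and Ppargc1b (right). Filled circles are controls and open squares labelled knockouts, in the gastrocnemius (blue) and the soleus (red); the points climb from left to right for Ppara and descend for Ppargc1b.

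Ppargc1a and Ppargc1b went in opposite directions, with r = -0.84 in the gastrocnemius (Spearman -0.73, exact permutation p = 0.0295 and 0.0365) and -0.83 in the soleus (Spearman -0.65, exact permutation p = 0.0142 and 0.0774). Without the 2 libraries farthest in Ppargc1a, r was -0.60 in the gastrocnemius and -0.36 in the soleus, where the relation thus rested on those libraries. Esrrb and Esrrg had r = 0.88 in the soleus (Spearman 0.82, exact permutation p = 0.00764 and 0.0184), and 0.84 without the 2 farthest. In the gastrocnemius their r was 0.41 (Spearman 0.32, exact permutation p = 0.298 and 0.460), and 0.26 without the 2 farthest. Ppargc1b and Ppara also went in opposite directions, with r = -0.90 in the gastrocnemius (Spearman -0.73, exact permutation p = 0.0271 and 0.0427) and -0.88 in the soleus (Spearman -0.85, exact permutation p = 0.00417 and 0.00694). Without the 2 libraries farthest in Ppargc1b, r was -0.70 and -0.84. The adjusted p-values of these Pearson correlations were 0.172 to 0.241, except for Esrrb and Esrrg in the gastrocnemius (0.766). The members also differed in spread. The coefficient of variation within a group was 17.99% to 43.2% for Ppargc1a, 23.9% to 33.2% for Ppargc1b and 18.2% to 43.1% for Ppara. Esrrb (11.95% to 18.6%) reached into the range of these 3. For Perm1 it was 7.49% to 13.1%, for Tfam 6.61% to 14.003%, for Esrrg 8.54% to 10.6%, for Esrra 3.74% to 10.2%, for Ppard 6.95% to 8.56% and for Nrf1 2.32% to 8.68%.

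The genes with the most similar pattern to each regulator over all 18 libraries were sought among 13079 genes with a mean of at least 1 CPM, by the Pearson correlation of log2 CPM. For Esrrg these were Pdlim1, Actn2 and Dusp18 (r = 0.995, 0.993 and 0.993), and for Esrrb Homer2, Clip4 and Klhl34 (all r = 0.99). Perm1 was closest to Klhl34, Coq8a and Esrrb (all r = 0.99), so that 1 regulator was among the 3 genes nearest to another. All 18 libraries enter these values, so the difference between muscles is part of them. Ppargc1a was closest to Sdc4, Zbtb43 and Heg1 (0.96, 0.96 and 0.95), Ppargc1b to Gbp9, Idnk and Cx3cl1 (0.93, 0.92 and 0.91) and Ppara to Arrdc5, Lrrc52 and Zdhhc23 (0.98, 0.97 and 0.97). Esrra was closest to Slco3a1, Crim1 and Rcan2 (0.96, 0.96 and 0.95), and Ppard to Tfeb, Scaf1 and Nutf2-ps1 (all 0.91). Tfam was closest to Naxe, Tm2d1 and Bnip3l (0.91, 0.91 and 0.89), and Nrf1 to Hnrnpl, Astn2 and ENSMUSG00000090828 (0.94, 0.93 and 0.91). With the group means removed, the nearest gene was Amigo2 for Ppargc1a (0.94, then Sdc4 at 0.92), Fam107a for Ppara (0.96) and Bhlhe41 for Ppargc1b (0.91). For Esrrb the same 3 genes were again nearest: Clip4 (0.96), Homer2 (0.86) and Klhl34 (0.85).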

How the data were processed

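The submitters' processing notes name featureCounts 1.4.6-p5 (Subread), STAR 2.5.1a, bcl2fastq and the build GRCm38. The sources used here do not give the strand setting, the annotation release or the handling of reads with several alignments. In each file the authors deposited counts per Ensembl gene with CPM and RPKM columns, per the file headers, and these deposited CPM and RPKM equalled the counts rescaled to within 4.9e-10, so only the counts were used. Symbols came from GENCODE mouse release M21 for 97.3% of the 41388 genes.

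The members and the 16 gene lists were chosen with earlier results of these data known. The count model was that of edgeR 4.0.16 under R 4.3.3 (TMM scaling, a filterByExpr minimum of 10 counts and a total of 15, robust quasi-likelihood test, Benjamini-Hochberg adjustment over all genes, threshold 0.05). Each knockout comparison used the 9 libraries of its muscle. The comparisons of muscles and the difference of the knockout effects used all 18 libraries in 4 groups, with no covariate. The levels given are CPM from TMM-scaled totals, and shares were compared by exact permutation. Intervals are the 95% intervals of the edgeR fits. The edgeR fit was also run on simulated data, and the outcome is not given here. Alternatives were RLE scaling, DESeq2 1.42.0, limma voom (3.58.1), no low-count filter, a mean of at least 1 CPM, removal of mitochondrially encoded genes, other sets of libraries and leaving out each replicate. All members were named. List genes were named where they were called in a knockout comparison, or, between muscles, among the 3 highest and 3 lowest called of a list, except for a gene that is not reported here. The 3 genes most like each member were named. Groups share no replicate numbers, and no number was used to pair samples.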

Additional observations from a re-analysis of the deposited data

Results flagged for a closer look

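In groups of 4 or 5 libraries, 5 of the 40 sets of member values held a library far from the others, where its gap to the nearest was a large part of the group's range. Chance flags about 1 in 20 such sets. Ppargc1b was at 39.0 CPM in gastrocnemius control replicate 8 and at 69.2 CPM in soleus control replicate 41, each the highest of its group. Esrra was at 115 CPM in soleus control replicate 34, the lowest of its group. Gastrocnemius knockout replicate 2 was far from the others in both Ppara (32.8 CPM, highest) and Tfam (21.1 CPM, lowest). These 2 flags stand in the same library.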

How the results depend on the processing

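No paired analysis was possible because the groups share no replicate numbers. Between soleus and gastrocnemius controls, each member kept its direction under all 17 alternatives run, and the 1 call lost (without replicate 41) was that of Ppargc1b. The count of all genes called was less stable. In the gastrocnemius knockout comparison it was 619 in the main setting, 1235 with DESeq2 and 206 to 1080 when 1 replicate was left out. In the soleus it was 10, 166 with DESeq2, 48 with no low-count filter, 28 in the fit of all 18 libraries and 3 to 66 when 1 replicate was left out. For the difference of the knockout effects it was 13, 52 with DESeq2 and 2 to 23 with 1 replicate left out. The count of members called in the gastrocnemius was 0 in every setting except 1 (Ppara, without knockout replicate 2), so 0 to 1 when a replicate was left out.

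Among estimates near 0, none of them called, signs turned. Ppargc1a in the gastrocnemius was at log2 -0.000867 with RLE scaling, -0.00105 with DESeq2, -0.0588 with limma voom, -0.00662 with no low-count filter, -0.000701 without mitochondrially encoded genes and -0.337 to 0.157 with 1 replicate left out. In the same comparison the ranges with 1 replicate left out were -0.0163 to 0.107 for Esrrg and -0.0808 to 0.00664 for Ppard. In the soleus Ppard was at -2.06e-05 with no low-count filter and -0.00668 in the fit of all libraries, and at -0.0535 to 0.0475 with 1 left out. There Ppargc1a was at -0.15 to 0.338, Ppargc1b at -0.0736 to 0.304 and Esrrg at -0.0107 to 0.0962. The difference of the knockout effects was 0.0285 (RLE) and 0.0286 (DESeq2) for Esrrg and 0.0285 and 0.0298 for Ppara. With 1 replicate left out it was -0.0744 to 0.0589 for Esrrg, -0.326 to 0.318 for Ppara, -0.173 to 0.405 for Ppargc1a, -0.0195 to 0.077 for Ppard and -0.0644 to 0.0723 for Perm1. The difference in the share of mitochondrially encoded mRNA, in percentage points, was -0.317 to 0.0965 in the gastrocnemius and 0.842 to 1.83 in the soleus with 1 replicate left out. The gastrocnemius calls on Plin2 (lost without replicate 1, 5, 6 or 7), Hdac3 (without 6) and Myl2 (without 7) also turned on single libraries. The call on Nrf1 between muscles in knockouts was lost in 10 of 15 settings. The causes were not tested.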
